A study of Mus musculus with 6 samples.

Results

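Bone morphogenetic proteins (BMPs) are secreted ligands of the TGF-beta superfamily. They bind receptor pairs such as the type I receptor Bmpr1a with a type II receptor, which then phosphorylate SMAD proteins that switch on target genes such as Id1. In the intestine, BMP ligands act most strongly towards the luminal side, where they favour differentiation of the epithelium, and mesenchymal cells near the crypt base secrete antagonists such as Grem1 that trap the ligands and keep BMP signalling low around the stem cells. The genes described here are 9 of the 18477 genes of the deposited table, chosen by gene symbol: the ligands Bmp2, Bmp3, Bmp4, Bmp5 and Bmp7, the antagonists Grem1 and Chrdl1, the receptor Bmpr1a and the target Id1. All 9 were in the table and all 9 passed the filter on low counts, which left 14579 tested genes.

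Colon tissue came from male C57BL/6 mice that were 6 to 8 weeks old when the study obtained them. Both groups drank 2% dextran sulfate sodium (DSS), a polymer that injures the colon epithelium, for the last 7 of 14 days. The DSS group (n = 3) was gavaged with PBS on each of the 14 days, and the DSS+BV group (n = 3) with the gut bacterium *Bacteroides vulgatus*. RNA of each mouse was sequenced as 1 library, and mice without DSS were not analysed here, so no value below is a level of the uninjured colon.

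The libraries held between 15293276 and 17254343 expected counts, so depth differed by at most 1.13 times. Across all tested genes, DSS 2 resembled DSS+BV 2 most (Pearson correlation of log2 CPM 0.963 across genes, which are not independent replicates) and DSS 1 and DSS+BV 1 resembled each other most (0.967), so each of these 3 was most like a library of the other group, ahead of 0.950 for DSS 1 with DSS 3 and 0.960 for DSS+BV 1 with DSS+BV 2. DSS+BV 2 and DSS+BV 3 were most like each other (0.975), and DSS 3 was most like DSS 1. All 6 colon markers (Cdx1, Cdx2, Muc2, Car1, Slc26a3 and Krt20) were detected in every library. Their summed level was 4192, 12620 and 6931 CPM in the DSS mice against 9457, 20960 and 30952 CPM in the DSS+BV mice. CPM is the count scaled to a common library size with TMM factors, and 3 values of a group are listed throughout in the order of mouse 1, 2 and 3. The markers of the distal colon differed much between mice of one group, and Hoxb13, a gene of the distal colon, was at 248 CPM in DSS+BV 1 and at 0 in DSS+BV 3.

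The antagonist Grem1 had the largest difference of the 9 genes. It stood at 160, 226 and 139 CPM in the DSS mice against 64.8, 28.5 and 37.0 CPM in the DSS+BV mice. Every DSS+BV mouse was thus below every DSS mouse. In bulk tissue, fewer cells of a type and less RNA per cell cannot be told apart, here and in all results that follow. The mean of the DSS group was 175 ± 45.3 CPM (SD, n = 3), against 43.4 ± 19.0 CPM (SD, n = 3) with *B. vulgatus*. On the log2 scale the difference was -2.01 (standard error 0.347), a level 4.03 times as high in the DSS group. In edgeR's quasi-likelihood test the adjusted p was 0.161 (Benjamini-Hochberg over all 14579 genes, where Grem1 had rank 72), so Grem1 did not pass the threshold of an adjusted p under 0.05 with an absolute log2 fold change over 1. With DESeq2, the tool of the study's methods, it did pass (log2 fold change -1.99, adjusted p = 1.44e-05).

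**Figure D1:**
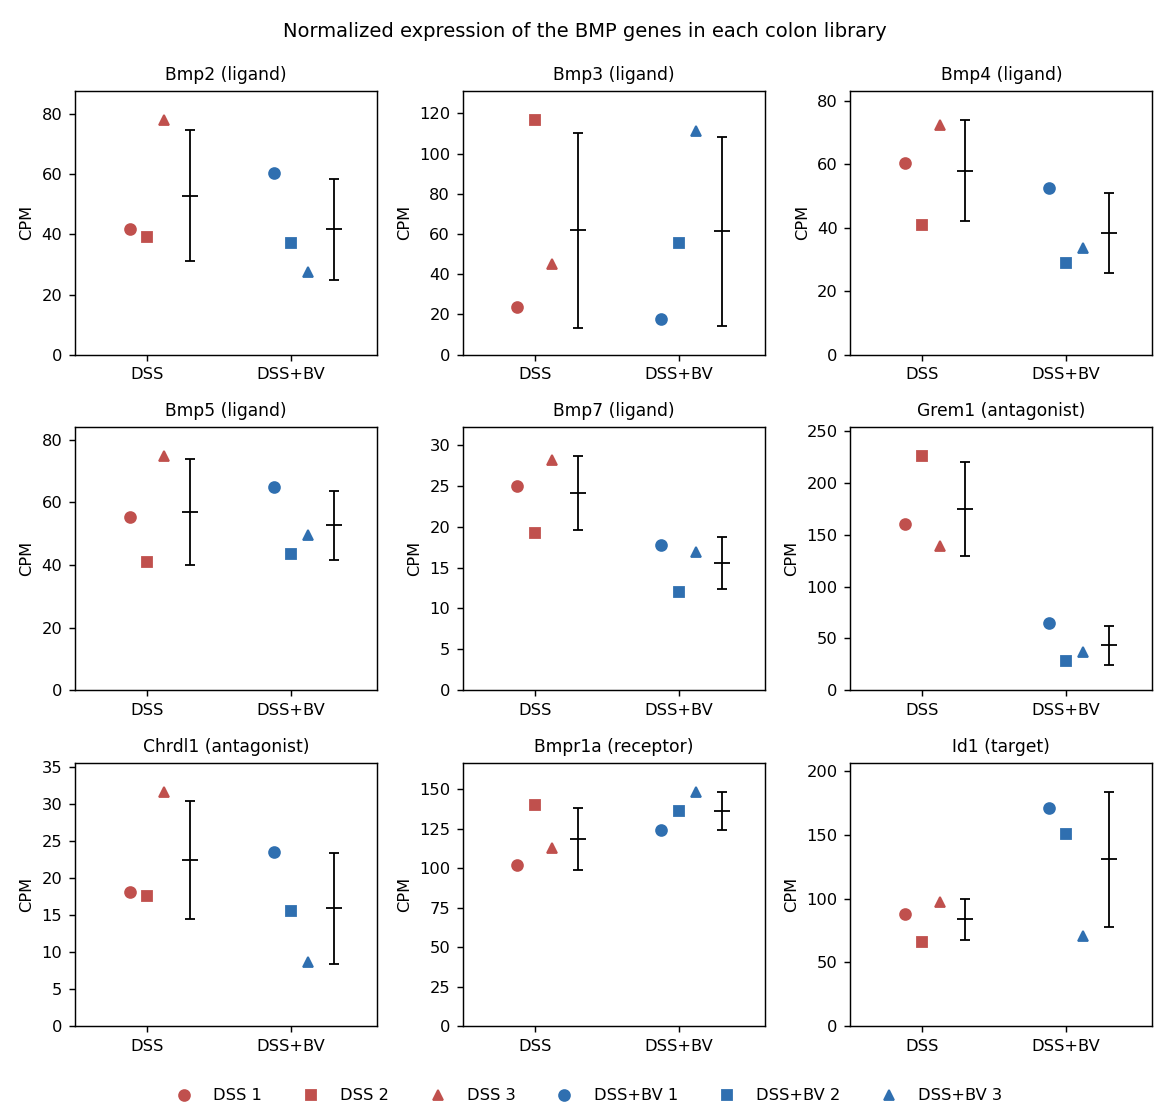
Normalized expression (y axis, CPM) of the 9 BMP genes in each colon library, with 1 panel per gene and the groups on the x axis; points are mice and the black bars are the mean with the SD (n = 3). Grem1 (28.5 to 64.8 CPM against 139 to 226 CPM) and Bmp7 (11.98 to 17.7 CPM against 19.2 to 28.1 CPM) are the genes whose groups do not overlap, whereas Bmp3 varies from 17.5 to 117 CPM without following the groups.

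Across the tested genes, edgeR called 13 lower (0.0892%) and 0 higher (0%) in the DSS+BV group, and none of the 9 BMP genes was among them. At an unadjusted p under 0.05, 1329 tested genes were lower (9.12%) and 496 were higher (3.4%), and of the 9 BMP genes 2 were lower, Grem1 and Bmp7, and 0 higher. DESeq2 called 1.73% of its tested genes lower and 0.279% higher, with Grem1 as the 1 call among the 9. Groups that did not overlap, with DSS+BV lower, were seen for 11.3% of all tested genes and for 2 of the 9, again Grem1 and Bmp7. In the higher direction the shares were 6.37% of all tested genes and 0 of the 9, and in either direction 17.6% and 2 of the 9. A log2 fold change under -1 was found for 7.12% of all tested genes and for 1 of the 9, Grem1. DSS 2 and DSS+BV 1 were also left out together because they resembled the other group. This choice parts the groups further by its construction. DSS 1 was kept, although it too was most like a library of the other group (0.967 with DSS+BV 1). With the 2 mice left per group, edgeR called 333 genes lower and 282 higher, Grem1 among the lower ones (log2 fold change -2.16, adjusted p = 0.0216). In that setting, counted after the data were seen, 6 of the 9 genes were lower and 2 higher without overlap, against 4228 (29%) and 3610 of the 14579 tested genes. The median log2 fold change was -0.35 over the 9 genes and -0.011 over all tested genes.

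Grem1 lies on the minus strand of chromosome 2 (GRCm38, 113746164 to 113758646), with 1 annotated transcript that shares no exonic base with another gene. The 250 bases before its start are printed below beside those of the ligands Bmp4 and Bmp5, whose levels differed less between the groups. Sequences are from RefSeq (GRCm38.p6), which held an entry for 4 of the 9 genes, and run 5′ to 3′ on the strand of the gene. Capitals mark GGCGCC, a GC-rich motif bound by the SMADs of BMP signalling that reads the same on both strands, and CAGAC, the SMAD box, searched on both strands (GTCTG on the other). The motifs can share 1 base and do not in these windows.
Grem1, chr2:113758649-113758898, minus strand: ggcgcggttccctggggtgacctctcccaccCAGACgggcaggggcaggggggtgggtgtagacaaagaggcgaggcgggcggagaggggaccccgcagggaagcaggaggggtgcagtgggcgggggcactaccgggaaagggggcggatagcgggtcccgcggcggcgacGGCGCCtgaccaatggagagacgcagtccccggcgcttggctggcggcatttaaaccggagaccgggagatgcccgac
Bmp4, chr14:46390670-46390919, minus strand: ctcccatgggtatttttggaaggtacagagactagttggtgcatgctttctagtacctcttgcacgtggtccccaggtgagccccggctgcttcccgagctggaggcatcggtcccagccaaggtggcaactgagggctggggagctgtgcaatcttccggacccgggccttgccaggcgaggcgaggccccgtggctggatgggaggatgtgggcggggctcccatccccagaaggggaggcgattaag
Bmp5, chr9:75775115-75775364, plus strand: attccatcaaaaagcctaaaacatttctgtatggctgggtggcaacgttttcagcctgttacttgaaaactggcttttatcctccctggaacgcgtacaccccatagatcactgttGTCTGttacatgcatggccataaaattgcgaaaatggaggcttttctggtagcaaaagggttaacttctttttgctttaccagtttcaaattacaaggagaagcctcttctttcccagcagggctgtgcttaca
The Grem1 window held GGCGCC in 1 place and CAGAC in 1 place, with a GC content of 72.0%. That of Bmp4 held neither (GC content 63.2%), and that of Bmp5 held CAGAC in 1 place (GC content 42.8%). The window of Bmpr1a, the fourth with an entry, also held GGCGCC in 1 place and no CAGAC, with a GC content of 78.8%, so GGCGCC was not limited to Grem1. Of 32851 windows of the same length, 9.59% held GGCGCC and 42.2% held CAGAC. These matches are descriptions of the letters and do not show binding.

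The second antagonist, Chrdl1, a chordin-like protein that binds BMPs, lies on chromosome X (143285674 to 143394262). Its levels were 18.1, 17.7 and 31.7 CPM in the DSS mice against 23.5, 15.5 and 8.66 CPM in the DSS+BV mice. The groups overlapped, since DSS+BV 1 was above both DSS 1 and DSS 2. The log2 fold change was -0.50 (standard error 0.408, edgeR adjusted p = 0.641), with a 95% interval from -1.47 to 0.48. This interval holds both no difference and a difference larger than 2-fold. The value was -0.17 without DSS 3, -0.20 without DSS+BV 3 and -0.88 without DSS+BV 1.

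Bmp7 (chromosome 2, 172868012 to 172940321) had the smallest p-value of the 5 ligands among the 9 genes. Its expression was 25.0, 19.2 and 28.1 CPM in the DSS mice against 17.7, 11.98 and 16.9 CPM in the DSS+BV mice. All 3 DSS+BV mice lay below the lowest DSS mouse, DSS+BV 1 narrowly so. Its log2 fold change was -0.63 (standard error 0.230, unadjusted p = 0.0300, edgeR adjusted p = 0.366), and DESeq2 did not call it either (adjusted p = 0.245).

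Bmp4 (chromosome 14, 46383520 to 46390669), a ligand made mainly by mesenchymal cells of the gut, was at 60.5, 40.9 and 72.4 CPM in the DSS mice against 52.6, 28.8 and 33.6 CPM in the DSS+BV mice. DSS+BV 1 was above DSS 2, and the other 2 DSS+BV mice were below all DSS mice. The difference of -0.60 on the log2 scale (standard error 0.297, edgeR adjusted p = 0.462) had a 95% interval from -1.31 to 0.11.

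Bmp2 (chromosome 2, 133552159 to 133562885), a close relative of Bmp4, was at 41.7, 39.1 and 78.1 CPM in the DSS mice against 60.5, 37.0 and 27.5 CPM in the DSS+BV mice. The groups overlapped through DSS+BV 1, which was above DSS 1 and DSS 2, while the other 2 DSS+BV mice were below all DSS mice. On the log2 scale they differed by -0.35 (standard error 0.378, edgeR adjusted p = 0.729), and by 0.045 without DSS 3.

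Bmp5 (chromosome 9, 75775364 to 75900310), another mesenchymal ligand, differed least between the group means of these 5 ligands after Bmp3. It was measured at 55.4, 41.1 and 74.8 CPM in the DSS mice against 65.0, 43.4 and 49.6 CPM in the DSS+BV mice. Its log2 fold change was -0.12 (standard error 0.257, edgeR adjusted p = 0.875), with a 95% interval from -0.73 to 0.50. The sign turned without DSS 3 (0.13) and without DSS+BV 2 (0.0084).

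Bmp3 (chromosome 5, 98854415 to 98884396), an atypical member of the family that can oppose other BMPs, varied most between mice of one group. Its levels were 23.8, 117 and 45.2 CPM in the DSS mice against 17.5, 55.3 and 111 CPM in the DSS+BV mice. The highest DSS mouse was 4.89 times the lowest and the highest DSS+BV mouse 6.33 times the lowest, against at most 2.72 times for the other 8 genes in either group. The highest values were those of DSS 2 and DSS+BV 3, 1 mouse of each group, and DSS+BV 2 stood not far above DSS 3. This order did not follow the treatment. The group difference on the log2 scale was -0.012 (standard error 0.766, edgeR adjusted p = 0.997), with a 95% interval from -1.84 to 1.82, so a difference of 2-fold in either direction was not detectable with these mice. Its sign turned without DSS 2 (0.83), without DSS+BV 1 (0.44) and without DSS+BV 2 (0.062).

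Markers of other cells and of colon position were set beside Bmp3. The summed level of the 6 colon markers named above, most of it Muc2 and Car1, was also highest in DSS+BV 3, DSS+BV 2 and DSS 2. Single markers did not all share that order, since Slc26a3 was lowest in DSS+BV 3 (146 CPM) and highest in DSS+BV 1 (685 CPM). The summed level of the 3 B cell genes (Cd79a, Cd79b and Ms4a1) was lowest in DSS+BV 2, DSS+BV 3 and DSS 2. It was 73.2, 8.02 and 139 CPM in the DSS mice against 112, 3.89 and 5.50 CPM in the DSS+BV mice. This was not particular to B cells. DSS 2, DSS+BV 2 and DSS+BV 3 were also lowest for 4 T cell genes (23.4, 24.5 and 26.0 CPM). The same held for 5 macrophage genes (538, 395 and 371 CPM). DSS 3, not far below DSS+BV 2 in Bmp3, had the highest B cell sum. The 4 distal colon genes (Hoxb13, Hoxd13, Hoxa13 and Hoxd12) summed to 327, 58.5 and 181 CPM and to 328, 153 and 0.253 CPM. Hoxb13 was at 0 in DSS+BV 3 and Hoxd12 at 0 in DSS 2 and DSS+BV 3. Hoxa13, in contrast, was highest in DSS 2 (21.0 CPM) and lowest in DSS+BV 3 (0.190 CPM). The part of sampled position or of lymphoid tissue in the Bmp3 values was not tested.

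**Figure D2:**
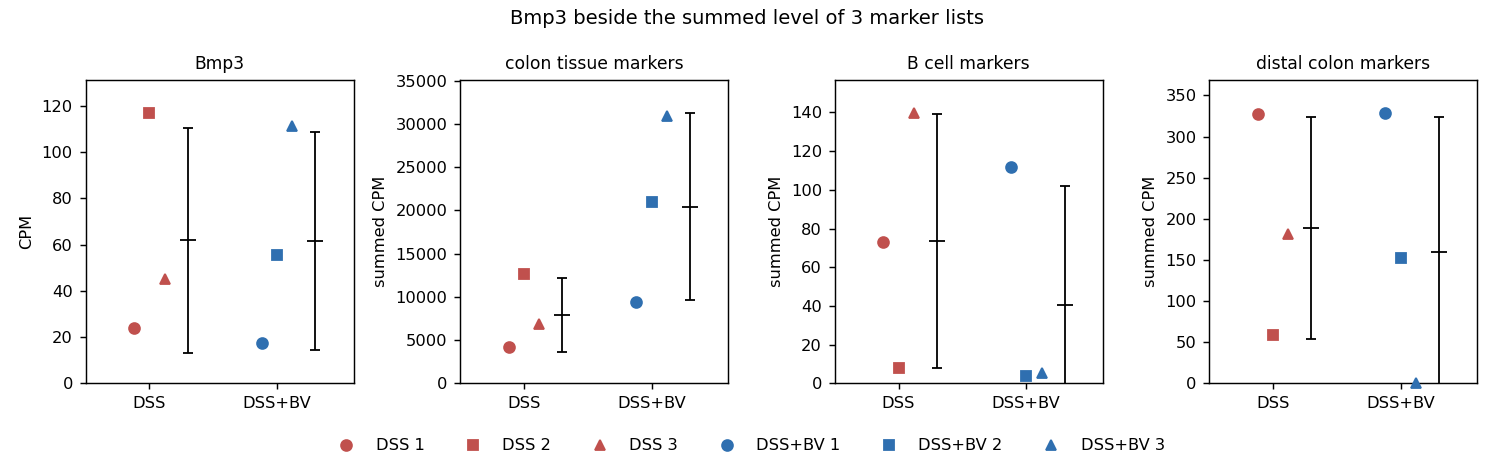
Bmp3 (CPM, first panel) and the summed CPM of the 6 colon, 3 B cell and 4 distal colon markers in each library, by group, with mean and SD (n = 3; SD bars that would pass below 0 end at the axis). The libraries highest in Bmp3 (DSS 2 at 117 CPM, DSS+BV 3 at 111 CPM and DSS+BV 2 at 55.3 CPM) are those with the lowest B cell sums (8.02, 5.50 and 3.89 CPM). DSS 3, next in Bmp3 at 45.2 CPM, has the highest B cell sum (139 CPM).

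The receptor Bmpr1a (chromosome 14, 34410734 to 34503341), a type I receptor of BMP2 and BMP4, was the steadiest of the 9 genes. The DSS mice had 102, 140 and 113 CPM and the DSS+BV mice 124, 136 and 148 CPM. With *B. vulgatus* the log2 fold change was 0.20 (standard error 0.160, edgeR adjusted p = 0.631), and the 95% interval from -0.18 to 0.58 leaves out a 2-fold difference in either direction.

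Id1 (chromosome 2, 152736251 to 152737410), an inhibitor of bHLH transcription factors and a direct target of BMP SMADs, was at 87.8, 66.0 and 97.2 CPM in the DSS mice against 171, 151 and 70.6 CPM in the DSS+BV mice. DSS+BV 1 and DSS+BV 2 were above all DSS mice, but DSS+BV 3 was within the DSS range. Its log2 fold change was 0.64 (standard error 0.337, edgeR adjusted p = 0.484), with a 95% interval from -0.16 to 1.45. It was 0.94 without DSS+BV 3 and 0.42 without DSS+BV 1.

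Within a library, Grem1 can be set against each ligand without any scaling between libraries. Since lengths differ, such a ratio of counts is compared only between libraries. Grem1 had 2.65, 5.52 and 1.92 counts per count of Bmp4 in the DSS mice against 1.23, 0.991 and 1.10 in the DSS+BV mice. The DSS+BV mice lay close together and below all DSS mice. The ratio to Bmp2 was between 1.78 and 5.77 in the DSS group and between 0.771 and 1.34 in the DSS+BV group, that to Bmp5 between 1.86 and 5.49 and between 0.657 and 0.997, and that to Bmp7 between 4.94 and 11.8 and between 2.18 and 3.65. For these 4 ligands the groups did not overlap. Among all tested genes, a ratio to the same ligand that was lower without overlap was found for 2.2% with Bmp4, 4.41% with Bmp2, 9.53% with Bmp5 and 1.78% with Bmp7. The ratio to Bmp3 did overlap, with 6.72, 1.94 and 3.07 in the DSS mice and 3.69, 0.516 and 0.333 in the DSS+BV mice. A ratio to Bmp3 that was lower without overlap was found for 0.391% of all tested genes.

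**Figure D3:**
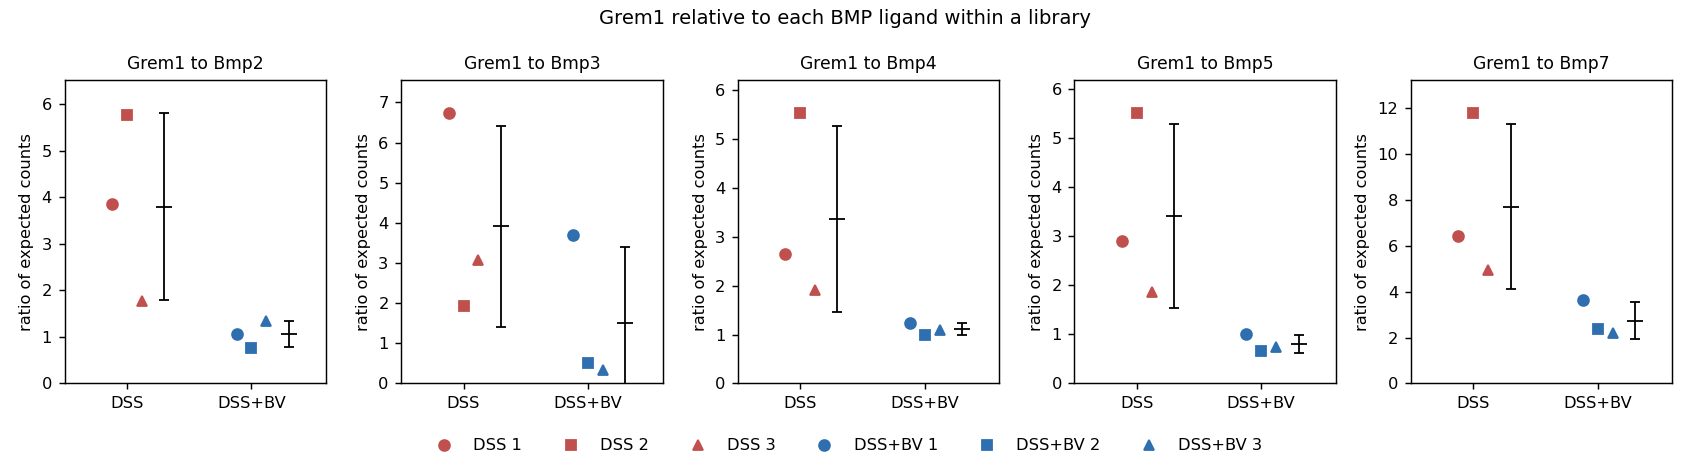
Expected counts of Grem1 divided by those of each of the 5 BMP ligands in the same library (y axis, ratio with no unit), by group, with mean and SD (n = 3; an SD bar that would pass below 0 ends at the axis). The DSS+BV mice lie below the DSS mice for Bmp2, Bmp4, Bmp5 and Bmp7, and overlap with them for Bmp3, where DSS+BV 1 is at 3.69.

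Levels of different genes were compared as CPM per kilobase of exon, with the union of GENCODE exons as the length. In the DSS group Id1 was highest at 72.2 ± 13.8 CPM per kilobase (SD, n = 3), followed by Grem1 at 42.2 ± 10.9, Bmp4 at 25.8 ± 7.08, Bmpr1a at 18.7 ± 3.09, Bmp2 at 14.9 ± 6.13, Bmp5 at 14.2 ± 4.21, Bmp3 at 8.36 ± 6.56, Bmp7 at 5.997 ± 1.125 and Chrdl1 at 3.33 ± 1.18 CPM per kilobase. The values of Id1 and Grem1, of Grem1 and Bmp4 and of Bmp7 and Chrdl1 did not overlap between the 3 mice, and all other neighbours did. With the longest transcript as the length, a choice made after the data were seen, Grem1 (33.5 to 54.4) overlapped Bmp4 (19.8 to 35.1), Bmp7 overlapped Chrdl1, and Bmp5 stood above Bmp2. In the DSS+BV group Id1 was again highest, at 113 ± 45.6 CPM per kilobase, and Bmpr1a (21.5 ± 1.89), Bmp4 (17.1 ± 5.59), Bmp5 (13.1 ± 2.76), Bmp2 (11.7 ± 4.78), Grem1 (10.5 ± 4.57), Bmp3 (8.29 ± 6.37), Bmp7 (3.87 ± 0.777) and Chrdl1 (2.36 ± 1.10) followed. There, Id1 and Bmpr1a did not overlap and all other neighbours did, with either length. Grem1 stood at rank 2 of the 9 in the DSS group, above the means of all 5 ligands, and at rank 6 in the DSS+BV group, below the means of Bmp4, Bmp5 and Bmp2 but with values that overlap those of Bmp2, Bmp3, Bmp4 and Bmp5.

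The other extracellular regulators of the pathway included several with lower values beside Grem1. Of 16 listed genes 14 were tested, 11 of them with a negative log2 fold change, against 7501 of all 14579 tested genes. In the lower direction 6 had groups that did not overlap (11.3% of all tested genes), and 0 in the higher direction. The median log2 fold change of the list was -0.78, against -0.011 for all tested genes, and edgeR called 0 of the 14 (0.0892% of all tested genes were called lower). At an unadjusted p under 0.05, 7 of the 14 were lower and 0 higher, against 9.12% and 3.4% of all tested genes. The list was chosen with earlier results of these data known, so its counts are descriptions and not a test. DESeq2 called 2 lower, Chrdl2 and Chrd, against 1.73% of its tested genes.

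Chrdl2, a chordin-like BMP antagonist, was at 18.7, 30.2 and 29.4 CPM in the DSS mice against 5.54, 6.18 and 1.58 CPM in the DSS+BV mice. Its log2 fold change was -2.56 (standard error 0.508, edgeR adjusted p = 0.189, DESeq2 adjusted p = 8.13e-05), larger in size than that of Grem1. Chordin itself, Chrd, which binds BMP2 and BMP4, had 18.7, 11.9 and 25.0 CPM in the DSS mice against 7.52, 5.35 and 3.48 CPM in the DSS+BV mice (log2 fold change -1.77, standard error 0.387, edgeR adjusted p = 0.222, DESeq2 adjusted p = 0.00238). In both genes the groups were parted by more than the range of the DSS+BV mice.

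Bmp1, which despite its name is a protease that cleaves procollagens and chordin, was at 39.2, 49.9 and 49.4 CPM in the DSS mice against 23.8, 27.3 and 27.6 CPM in the DSS+BV mice (log2 fold change -0.81, standard error 0.155, edgeR adjusted p = 0.186). Fstl1, a secreted follistatin-like glycoprotein, was at 147, 141 and 150 CPM in the DSS mice against 94.6, 66.8 and 62.0 CPM in the DSS+BV mice (log2 fold change -0.97, standard error 0.184, edgeR adjusted p = 0.186). DESeq2 gave both an adjusted p under the threshold, 0.00354 and 0.00201, with a fold change too small for a call. The other regulators without overlap, named like Nog and Fst after their values were seen, were Nbl1 (log2 fold change -0.91, standard error 0.307) and Sostdc1 (-1.59, standard error 0.449), both BMP antagonists. Without DSS 2 and DSS+BV 1, the median of the list was -0.48. Noggin, Nog, a potent antagonist, was near the filter at 0.719, 0.435 and 1.22 CPM in the DSS mice against 0.726, 0.828 and 0.759 CPM in the DSS+BV mice. Fst, which binds activins and BMPs, had the highest fold change of the list, 0.66 (standard error 0.789), with 11.7 CPM in DSS+BV 3 and 0.923 CPM in DSS+BV 1.

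**Figure D4:**
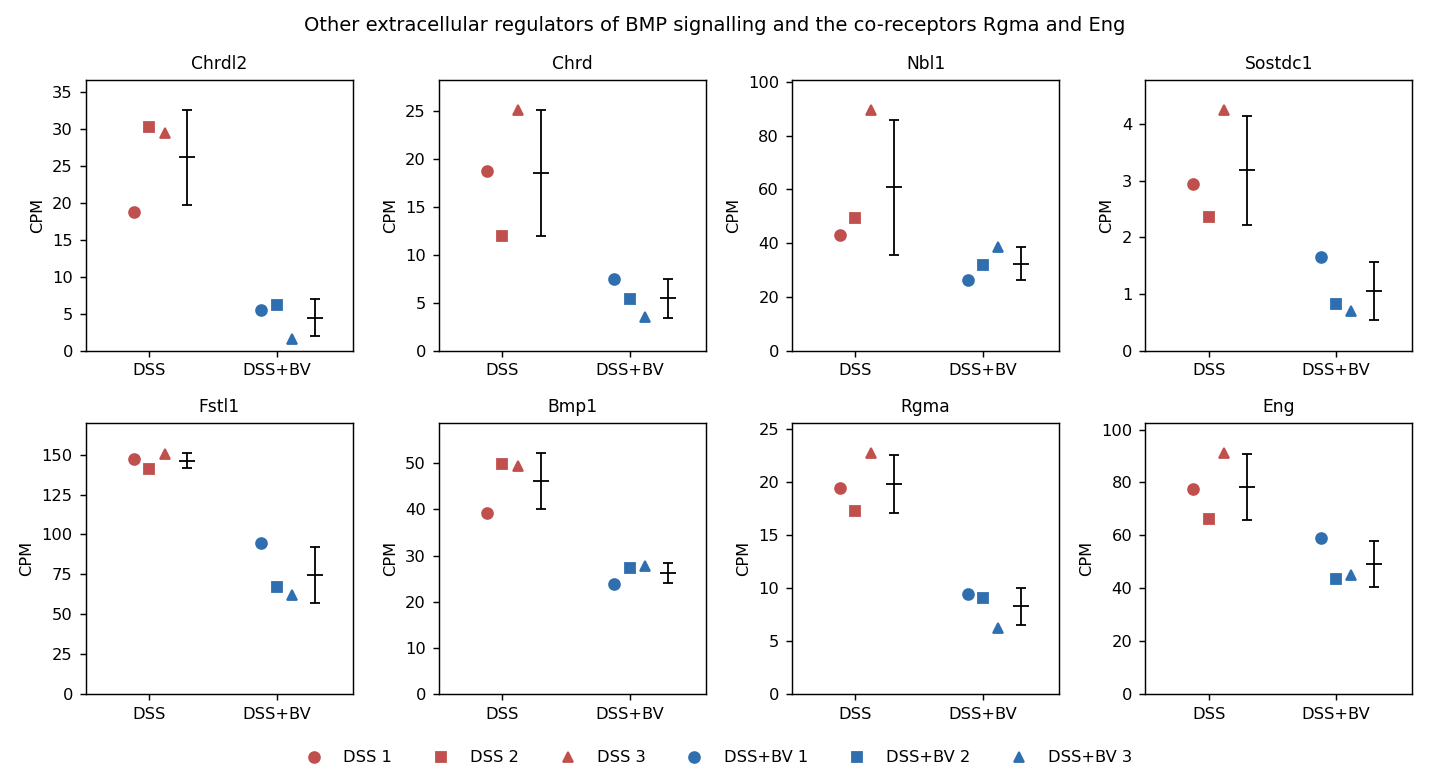
Normalized expression (y axis, CPM) of 6 extracellular regulators of BMP signalling and of the co-receptors Rgma and Eng in each library, by group, with mean and SD (n = 3). In each panel all DSS+BV mice lie below all DSS mice, most widely in proportion for Chrdl2 (1.58 to 6.18 CPM against 18.7 to 30.2 CPM) and narrowly for Nbl1 (26.3 to 38.6 CPM against 43.2 to 89.6 CPM).

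Among the other receptors and co-receptors, 10 of 10 listed genes were tested. In edgeR 0 were called and 2 were lower at an unadjusted p under 0.05 (9.12% of all tested genes), DESeq2 called 1 lower (1.73%), 2 were lower without overlap (11.3%), and the median log2 fold change was -0.048. Rgma, a membrane-anchored BMP co-receptor, was at 19.5, 17.3 and 22.7 CPM in the DSS mice against 9.43, 9.05 and 6.26 CPM in the DSS+BV mice (log2 fold change -1.26, standard error 0.231, edgeR adjusted p = 0.173), and DESeq2 called it lower (adjusted p = 0.000359). Endoglin, Eng, an endothelial co-receptor, also had groups without overlap (log2 fold change -0.67, standard error 0.182, edgeR adjusted p = 0.300). The type II receptors Bmpr2 (-0.22, standard error 0.188) and Acvr2a (0.32, standard error 0.154) had small log2 fold changes, and their groups overlapped. Without DSS 3, the median of the list was 0.093.

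In the intracellular part of the pathway, all 10 listed SMADs and SMAD regulators were tested, with a median log2 fold change of -0.069. There were 0 genes without overlap (17.6% of all tested genes in either direction). There were 0 edgeR calls, 1 gene lower at an unadjusted p under 0.05 (Smad4, against 9.12% of all tested genes) and 0 DESeq2 calls. Smad1 (-0.15, standard error 0.152), Smad5 (-0.16, standard error 0.129) and Smad9 (-0.39, standard error 0.293), which carry the BMP signal, had edgeR adjusted p-values of 0.703, 0.631 and 0.617. The shared Smad4 had the largest log2 fold change of the list, -0.79 (standard error 0.293, edgeR adjusted p = 0.371), with DSS mice at 372, 214 and 266 CPM and DSS+BV mice at 217, 159 and 117 CPM. The inhibitory Smad6 (0.010, standard error 0.234) and Smad7 (0.055, standard error 0.149), which BMP signalling can induce, had log2 fold changes near 0 and are named, like Id3 among the targets, after their values were seen.

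Of 10 other listed target genes 7 were tested, and edgeR called 0 of them, with 1 lower at an unadjusted p under 0.05 (9.12% of all tested genes) and 0 DESeq2 calls. Their median log2 fold change was -0.48, and -0.13 without DSS 3. Id3, a relative of Id1, had 0.30 (standard error 0.227) and Id2 had -0.65 (standard error 0.317), so the Id genes did not share a direction, and none of these differences passed the test. Tbx3 (0.72, standard error 0.511), Atoh8 (-0.48, standard error 0.327) and Hey1 (-0.77, standard error 0.311) had edgeR adjusted p-values of 0.593, 0.578 and 0.392. Hey1 was the 1 gene of the list without overlap, in the lower direction (11.3% of all tested genes). Of 11 other listed ligands 4 were tested, with 0 edgeR calls, 1 gene lower at an unadjusted p under 0.05 (9.12% of all tested genes), 0 DESeq2 calls and a median of -0.71. Bmp8b was at 25.2, 11.8 and 37.0 CPM in the DSS mice against 3.36, 10.1 and 10.4 CPM in the DSS+BV mice (log2 fold change -1.63, standard error 0.554, edgeR adjusted p = 0.351). Bmp6 (0.042, standard error 0.373), Bmp8a (-0.15, standard error 0.300) and Gdf10 (-1.27, standard error 0.597) overlapped between the groups.

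**Figure D5:**
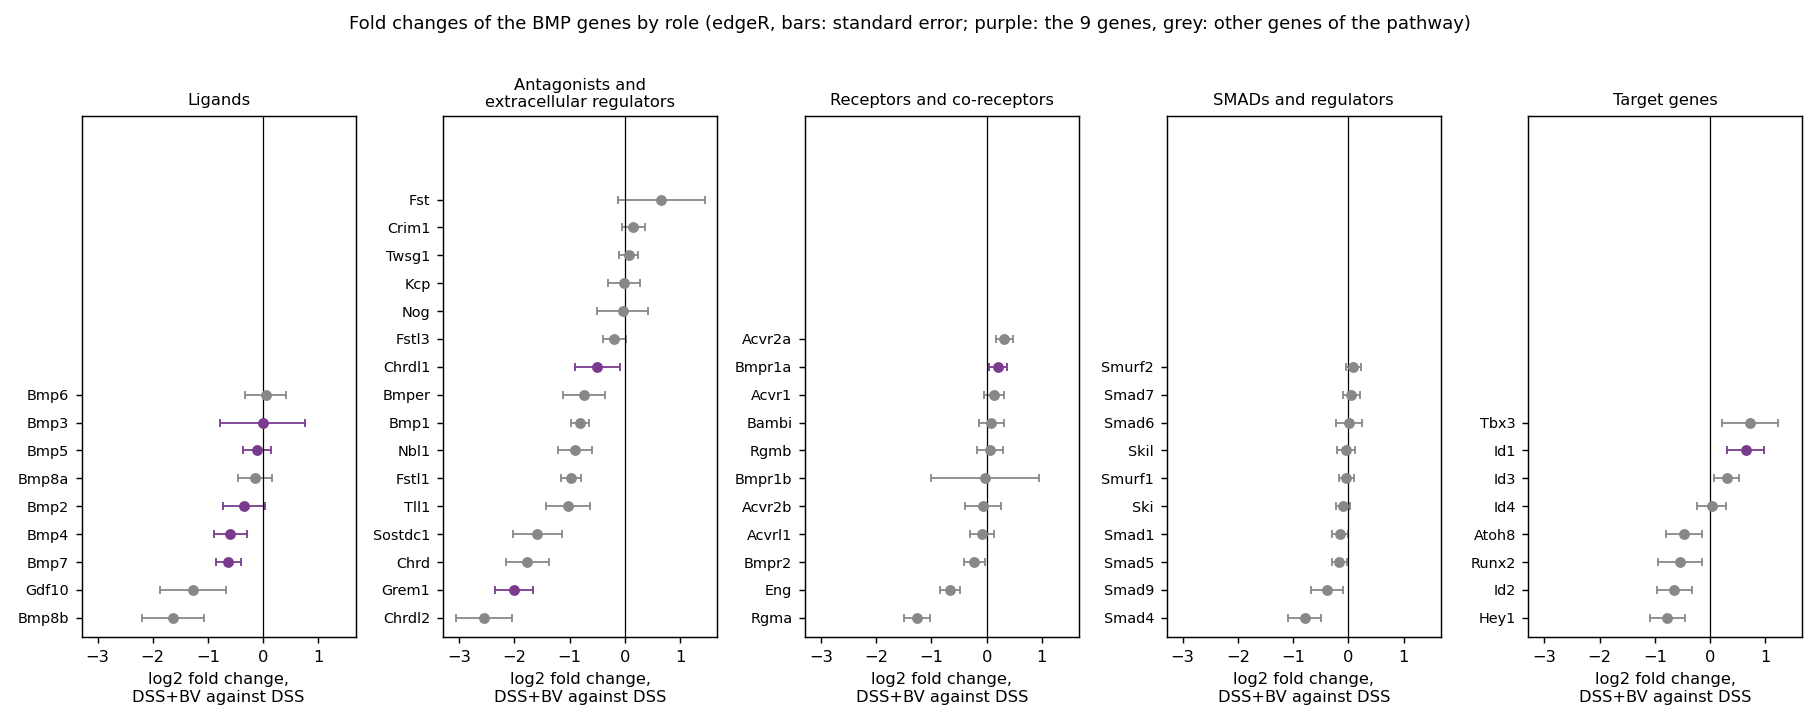
Log2 fold changes (x axis, DSS+BV against DSS) of all tested genes of the pathway, with 1 panel per role; points are edgeR estimates, bars the standard error, purple marks the 9 genes and grey the other listed genes. Chrdl2 (-2.56), Grem1 (-2.01) and Chrd (-1.77) lie farthest to the left among the extracellular regulators, while the SMADs run from -0.79 to 0.092.

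Summed levels of cell type markers were set beside Grem1 and the other regulators. The 8 fibroblast genes summed to between 1611 and 2338 CPM in the DSS group and between 909 and 1282 CPM in the DSS+BV group. Of the 8, 3 were lower without overlap (11.3% of all tested genes). Lower sums were also seen for 8 endothelial genes (345 to 449 CPM against 232 to 308 CPM), 8 enteric neuron and glia genes (53.5 to 193 CPM against 37.3 to 37.6 CPM), 6 neutrophil genes (126 to 160 CPM against 10.3 to 21.8 CPM) and 4 adipose genes (61.6 to 170 CPM against 23.1 to 55.4 CPM, with Adipoq, Plin1 and Cfd at 0 in DSS+BV 3). In these lists, in the same order, 4, 6, 6 and 2 genes were lower without overlap. The 9 epithelial genes summed to more in the DSS+BV group, 12524 to 16306 CPM against 9990 to 10911 CPM. Of the 9, 5 were higher without overlap (6.37% of all tested genes), and Epcam, Cdh17, Cldn3 and Cldn7 overlapped. The sums overlapped for 5 genes of submucosal trophocytes, cells known as a source of Grem1 (186 to 220 CPM against 117 to 199.99 CPM), for 6 genes of subepithelial telocytes, known as a source of BMP ligands (204 to 306 CPM against 190 to 250 CPM), and for 8 smooth muscle genes (3326 to 4099 CPM against 2421 to 3986 CPM). Of single genes in these 3 lists, 1 of the 5, 2 of the 6 and 0 of the 8 were lower without overlap, against 11.3% of all tested genes. The trophocyte gene among them was Rspo3, which encodes a secreted enhancer of Wnt signalling. It was at 13.1, 18.5 and 27.4 CPM in the DSS mice against 8.71, 6.24 and 4.80 CPM in the DSS+BV mice. Its log2 fold change was -1.58 (edgeR adjusted p = 0.239). Ackr4 of the same list had a log2 fold change in the other direction, 0.41 (edgeR adjusted p = 0.610), with groups that overlapped. Cd81 and Cd34 made up most of the trophocyte sum. Of these lists edgeR called 5 of the 6 neutrophil genes and 0 genes of any other (0.0892% of all tested genes were called lower). No gene of these lists was at 0 in all libraries. The sums of 5 macrophage genes (538 to 1275 CPM against 371 to 989 CPM) and 4 T cell genes (23.4 to 44.5 CPM against 24.5 to 53.0 CPM) overlapped too. The part of these cell types in the Grem1 values was not tested.

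The genes whose pattern over the 6 libraries was most like that of each BMP gene were found by the root mean square distance of centred log2 CPM, as a description without a test. For Grem1 these were Lox (distance 0.261) and Rab44 (0.296), where Grem1 itself deviated from its own mean by 1.11. Lox was at 39.1, 76.9 and 50.4 CPM in the DSS mice against 18.9, 12.1 and 13.9 CPM in the DSS+BV mice. The genes nearest to Bmp7 were Plod1 (0.0623) and Lamb1 (0.0695), with log2 fold changes of -0.63 and -0.61. Those nearest to Bmp3 were Kcnip1 (0.258) and Kcnk2 (0.272), and Kcnip1 was likewise high in DSS 2 (5.35 CPM), DSS+BV 3 (4.30 CPM) and DSS+BV 2 (2.87 CPM). For the remaining genes they were Tmed8 (0.104) and Ms4a4d (0.106) for Bmp2, Rab30 (0.0436) and Rab8b (0.0551) for Bmp4, Arhgap28 (0.0313) and Cdh3 (0.0694) for Bmp5, Chrm2 (0.0895) and Klf2 (0.0927) for Chrdl1, Kbtbd7 (0.0313) and Cntnap1 (0.0330) for Bmpr1a, and Arl5b (0.156) and Msmo1 (0.165) for Id1.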

How the data were processed

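Colon RNA of 3 DSS and 3 DSS+BV mice was analysed. The authors quantified genes with RSEM and deposited expected counts, which were not scaled between libraries. The submitters' processing notes name HISAT2 2.1.0, Bowtie2 2.2.5, RSEM 1.2.8 and GRCm38.p6. Whether counting used strand is not given in the sources used here. On the other strand, Bmp4, Bmp5 and Bmpr1a share exonic bases with Gm15217, Gm26903 and Gm17110.

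Expected counts were rounded, filtered with filterByExpr (minimum count 10, minimum total 15), scaled with TMM factors and tested by quasi-likelihood (edgeR 4.0.16, R 4.3.3). The p-values of all 14579 genes were adjusted together by Benjamini-Hochberg. The study's methods used DESeq2, run here (1.42.0) as an alternative. The 95% intervals use edgeR's standard errors with 6.68 degrees of freedom. A single gene cannot reach an exact two-sided permutation p under 0.1 with 3 mice per group. Library totals differed by at most 1.13 times, the biological coefficient of variation was 32.1%, and p-values measure the spread between these mice. Each group is 3 separate mice, and no pair of libraries agreed within sampling noise (chi-square per degree of freedom of 42.7 or more).

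The 9 genes and all lists were chosen with earlier results of these data known. Named genes are the 9, the 4 genes of each list with the smallest edgeR p-values together with any called, and the 2 genes of mean CPM of at least 1 nearest in pattern to each of the 9. In 3 of the lists 1 gene is not reported here and was left out of counts and sums. Genes of the BMP lists named outside this rule are said to be so. Single genes of the marker lists, such as Rspo3, Slc26a3 and Hoxb13, also lie outside it and were named after their values were seen. Lengths and gene positions came from GENCODE M21 (GRCm38), matched by Entrez number. The fits were tested on simulated data. Alternatives were RLE and upper-quartile factors, 2 other filters, a replicate block, a robust fit, the adjusted p alone, and libraries left out. Figures were drawn with matplotlib 3.10.9.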

Additional observations from a re-analysis of the deposited data

How the results depend on the processing

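Over all genes, 13 lower and 0 higher genes were called, and DESeq2 called 280 and 45. With DSS 2 and DSS+BV 1 both left out, a fit of 2 mice against 2, edgeR called 333 and 282. With 1 library left out, edgeR called between 0 and 3 lower and between 0 and 4 higher genes.

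Grem1 kept its sign in every fit, between -2.40 (without DSS+BV 1) and -1.77 (without DSS 2), and its adjusted p ran from 1.44e-05 with DESeq2 (log2 fold change -1.99) to 0.664 without DSS+BV 2. It was 0.0216 without both DSS 2 and DSS+BV 1 (-2.16), a choice that parts the groups further by its construction. Bmp4, Bmp7, Chrdl1, Bmpr1a and Id1 kept their sign in every fit and were called in none. Bmp2 ran from -0.71 to 0.045 with 1 library left out, Bmp5 from -0.30 to 0.13 and Bmp3 from -0.76 to 0.83. Bmp3 was at 0.0086 with DESeq2, 0.0082 with every gene with a count and 1.28 without both libraries, so its direction depended on the fit. The cause was not tested.

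DESeq2 called 2 of the other regulators and 1 of the other receptors lower, against 1.73% of its tested genes. Without both libraries, edgeR called 2 regulators and 1 ligand, where it called 333 genes lower and 282 higher over all genes. Calls thus rose across the whole table in that setting. The median of the other ligands was -0.13 with DESeq2 and -0.12 with every gene with a count, fits that take in ligands of low count. With 1 library left out, its range was -1.26 to -0.56. The ranges were -0.92 to -0.60 for the regulators (-0.48 without both libraries), -0.12 to 0.093 for the receptors and -0.70 to -0.13 for the targets. Without both libraries, genes lower without overlap were 6 of the 9 BMP genes, 8 of 14 regulators, 1 of 4 ligands, 4 of 10 receptors, 3 of 10 SMAD genes and 4 of 7 targets, against 29% of all tested genes. Those higher were 2, 2, 0, 2, 1 and 1, against 3610 of 14579.

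Whether the replicate numbers pair the mice is not given in the labels. Deviations of same-numbered libraries correlated at 0.267, 0.255 and -0.296. These values cannot settle it, since libraries of different numbers were not compared in this way. With the number as a block, edgeR called 0 lower genes and Grem1 was at -2.06 (adjusted p = 0.267). The block changed no call among the 9 BMP genes and the 5 BMP lists. Among the cell type markers, the calls of 5 neutrophil genes were lost. Without division by length, Grem1 ranked 1 of 9 with DSS alone and 5 of 9 with *B. vulgatus*.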
